A study of Homo sapiens with 12 samples.

Results

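The 8 genes described here, TRAF5, LRIF1, RAB13, PBXIP1, SLC35G1, WBP1L, FUT11 and SSU72, were chosen by their measured FPKM values: earlier results of these data, 24 h against 0 h, showed transcripts of each that start at different places and behave differently in low oxygen. The transcript table groups transcripts that share a start into start groups, which carry identifiers beginning with TSS, and every transcript that equals a reference transcript (class =) or shares a splice junction with one (class j) was taken. The 8 genes, of 56537 gene names in the table, hold 58 of 286562 such transcripts, 40 of class = and 18 of class j, in 25 of 149698 start groups. FPKM, the number of fragments scaled to transcript length and library size, was added up over each start group, and the share of a start group is its percentage of the FPKM of its gene in the same library. Because the comparison of 24 h with 0 h chose the genes, values of these genes at 24 h are given as a description, with no p, while 1 h and 2 h were tested.

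All libraries came from HCT116, an established human colorectal cancer cell line, and poly(A) RNA, which leaves out transcripts without a tail, was sequenced from strand-specific libraries. The cells were kept at 21% oxygen (0 h) or moved, a day after plating, into a workstation at 1% oxygen for 1, 2 or 24 h, with 3 biological replicates at each of the 4 time points and 12 libraries in all. The sources used here do not say whether the 0 h and 24 h cells were harvested equally long after plating, so time in culture and time in 1% oxygen cannot be told apart. A single cell line was used, and fewer cells with a transcript and less of it in each cell cannot be told apart in bulk RNA.

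The epithelial genes EPCAM (213 to 354 FPKM) and KRT18 (449 to 756 FPKM) were high in every library, and the leukocyte gene PTPRC did not exceed 0.0095 FPKM. Of 15 textbook targets of the hypoxia-inducible factors (HIFs), 14 passed the filter on low values (summed FPKM above 0.5 in at least 3 libraries) and all 14 were higher at 24 h, with a median change of 3.39 on the log2(FPKM + 0.5) scale against -0.05 for all genes. The summed FPKM per library ran from 1534760 to 5258189, and the files hold no read counts, so the counting error behind each value is unknown and the spread of 3 replicates is the measure of precision used.

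A promoter is the stretch of DNA at which RNA polymerase II is loaded, and many human genes carry more than one. Transcripts from alternative promoters differ in their first exon, which can change the leader ahead of the coding sequence, the first amino acids of the protein, or whether a protein is encoded at all. In low oxygen, HIF dimers bind a short core, ACGTG or GCGTG, near the genes they control. Cufflinks infers the abundance of each transcript from reads that fit several, so a start group's FPKM rests on the whole transcript and not on reads at the start alone.

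In 6 of the 8 genes the shares of the start groups differed between 0 h and 24 h without overlap of the libraries, and in RAB13 and WBP1L they overlapped, so that the values of these last genes go against their place among genes with a shifted start. The start group whose mean share gained most from 0 h to 24 h is called the rising group of its gene, and the one that lost most the falling group. The gain had a median of 13.6 percentage points over the 8 genes and ran from 0.163 points in RAB13 to 28.1 in SLC35G1. By mean share only TRAF5 had another largest start group at 24 h than at 0 h, and its 3 libraries at 24 h each had a different one (TSS5798, TSS5801 and TSS5797), whereas each of the other 7 genes had the same one in all 12 libraries. Of the 8 genes, 7 had at least 2 start groups past the filter (16 groups), and RAB13 had 1. Shares did not overlap for 14 of these 16 groups at 24 h, where 25.4% of all 31006 tested start groups did not overlap either, and since that contrast chose the genes nothing follows from the count.

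**Figure D1:**
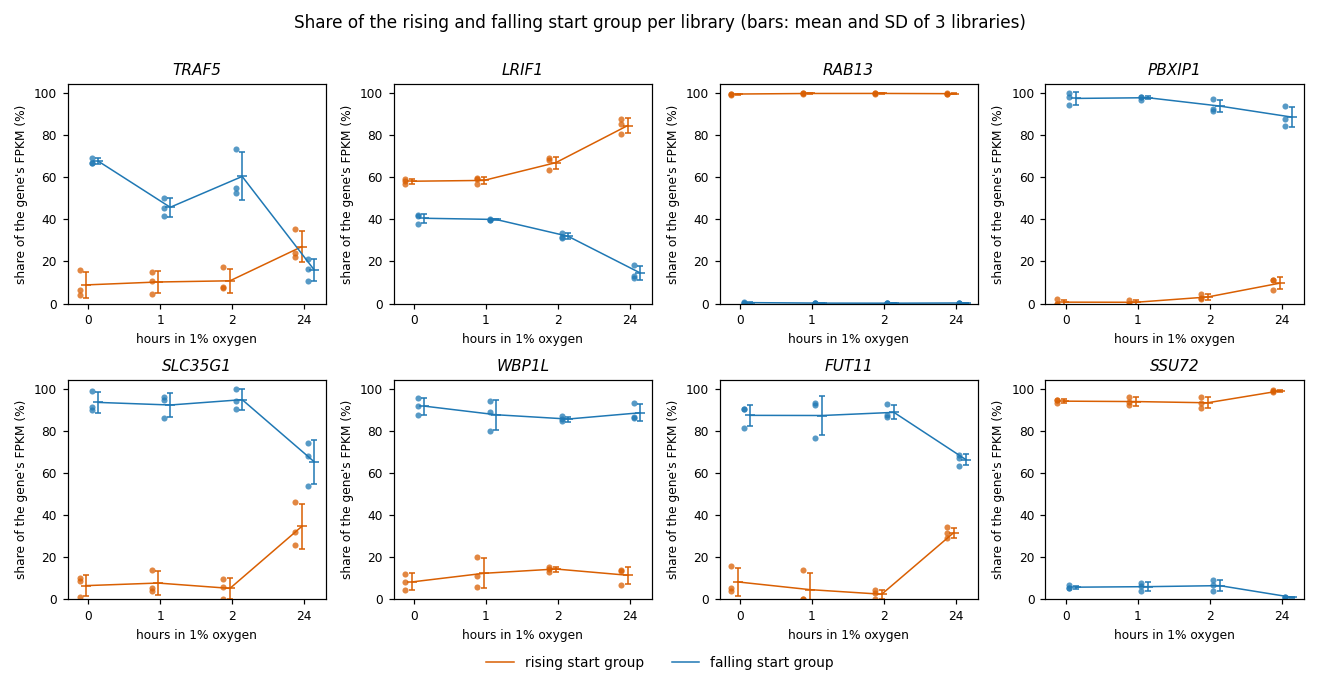
Share of each gene's FPKM (%, vertical axis) held by its rising (orange) and falling (blue) start group against hours in 1% oxygen, with a point for each library and a bar for the mean and SD of 3. The orange and blue points at 24 h lie clear of those at 0 h in 6 panels, while RAB13 stays near 99.4 to 99.6% and WBP1L overlaps.

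TRAF5 is an adaptor that carries signals from receptors of the tumour necrosis factor family towards NF-kappaB. Its start group TSS5799, led by ENST00000261464 (GRCh37, chromosome 1, start at 211500175 on the plus strand), held 66.6, 69.2 and 66.9% of the gene at 0 h and 21.2, 16.4 and 10.5% at 24 h. At 1 h it held 50.3, 45.4 and 41.4%, below every 0 h library, and at 2 h it held 54.9, 52.7 and 73.4%. The 24 h libraries were the lowest, and at 2 h 2 libraries lay below those at 0 h and 1 above.

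Another annotated start of TRAF5 lies downstream. The start group TSS5801, ENST00000367004 with its start at 211519706, held 10.9, 17.03 and 19.2% at 0 h and 37.2, 26.5 and 32.0% at 1 h. The values at 2 h were 23.4, 22.4 and 11.4%, and those at 24 h were 33.8, 42.9 and 19.8%. Its share was above all 0 h libraries at 1 h and 24 h. On the level scale its FPKM was 0.527 ± 0.126 (SD, n = 3) at 0 h and 0.808 ± 0.398 at 24 h, and the libraries overlapped, whereas TSS5799 went from 2.28 ± 0.0852 to 0.399 ± 0.180. All 3 protein-coding transcripts of TRAF5 in the annotation begin translation at the same base, 211526582, and encode 557 codons. ENST00000367004 also ends earlier (211546137 against 211548288) and is shorter, with 1827 against 3976 annotated bases, so the difference between these groups is not at the start alone.

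The 120 bases before these starts are shown because TSS5799 had the largest mean share of TRAF5 at 0 h and TSS5801 at 24 h. Neither stretch holds a HIF core, so neither has capitals, although a pair of overlapping matches lies 213 and 212 bases before the start of TSS5799. The same pair lies 78 and 77 bases before an annotated start, 211500040, of the neighbouring group TSS5798.
TRAF5 TSS5799, GRCh37 chr1:211500055-211500174, plus strand: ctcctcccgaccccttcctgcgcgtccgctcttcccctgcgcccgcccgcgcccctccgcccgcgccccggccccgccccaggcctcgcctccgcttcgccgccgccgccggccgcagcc
TRAF5 TSS5801, GRCh37 chr1:211519586-211519705, plus strand: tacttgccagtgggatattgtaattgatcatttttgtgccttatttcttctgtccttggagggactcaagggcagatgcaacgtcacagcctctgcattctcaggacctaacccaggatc
C and G make up 85% of the upstream stretch and 46.7% of the downstream one.

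The rising group of TRAF5, TSS5798, begins 135 bases before TSS5799 or further upstream, at annotated starts from 211499957 to 211500040. Its share was 15.96, 6.64 and 4.05% at 0 h and 35.4, 21.9 and 23.9% at 24 h, without overlap. Part of that gain sits in a pair of transcripts with equal estimates: the class = transcript of ENST00000336184 in TSS5798 and that of ENST00000261464 in TSS5799 have the same length in the table, 3972 bases, and the same FPKM at 24 h, 0.468, 0.444 and 0.0998 in the 3 libraries. At 0 h the former was at most 0.00283 FPKM and the latter 2.38, 1.82 and 2.03. Among all genes, from 1 to 6 in each library had transcripts above 0.05 FPKM with exactly equal values in different start groups, and TRAF5 was among them in all 3 libraries at 24 h. Taken as one, TSS5798 and TSS5799 held 82.6, 75.8 and 71.0% at 0 h and 56.5, 38.3 and 34.4% at 24 h. The lower share of these groups together thus did not depend on how the pair was split. A further group, TSS5797, was at 0 FPKM in every 0 h library and held 35.8% in 1 library at 24 h (replicate 3) and 0 in the others. It is a class j transcript nearest to ENST00000336184 without an annotated start, and it is not in the joined share. If it starts in the same upstream region, replicate 3 shows no clear loss from that region. In that library TSS5801 held 19.8%, against 19.2% in replicate 3 of 0 h. TSS5802 (ENST00000473385, start at 211542271, no coding sequence defined) held 7.81 ± 1.73% at 0 h and 12.8 ± 5.19% at 24 h, which overlap.

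RAB13, a small GTPase of the RAB8 subfamily that moves proteins to cell junctions, started at 1 place at all times. TSS10819, led by ENST00000368575 (minus strand, start at 153958815 on chromosome 1), held 99.4 ± 0.229% of the gene at 0 h and 99.6 ± 0.190% at 24 h, and the lowest library had 99.2%. The falling group TSS10821 went from 0.470 ± 0.0845% to 0.311 ± 0.102%, a difference of 0.159 points with overlapping libraries. The summed level as deposited was 31.2, 40.7 and 48.6 FPKM at 0 h and 74.5, 78.7 and 68.9 FPKM at 24 h, without overlap, a difference that came to 0.03 in log2 when each library was rescaled to the same total. The 3 values at 1 h (30.2, 40.2 and 55.4 FPKM) and at 2 h (33.8, 44.3 and 56.5 FPKM) overlapped those at 0 h, and the library numbered 3 was the highest at each of the early times. Same-numbered gene totals were weakly correlated between 0 h and both early times. Within the numbered pairs, RAB13 was higher at 2 h than at 0 h in all 3 (0.15 ± 0.15 SE in log2, limma adjusted p 0.62 with the replicate number as a block). SLC35G1 was also higher in all 3 pairs, and LRIF1 and SSU72 were lower, SSU72 barely so in pair 3 (81.42 and 81.37 FPKM). Over all members the limma adjusted p with this block ran from 0.33 to 0.92 at 2 h.

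LRIF1 encodes a nuclear factor that binds the heterochromatin protein HP1 and SMCHD1, and its main start groups are led by transcripts that encode products of different length. TSS9887, led by ENST00000369763, which encodes 769 codons, held 38.0, 42.1 and 41.5% at 0 h and 13.2, 12.2 and 18.4% at 24 h. TSS9889, which is ENST00000485275 alone and encodes 233 codons from a start codon further along, held 59.2, 56.9 and 58.1% at 0 h and 85.2, 87.8 and 80.5% at 24 h. TSS9887, all its transcripts counted, went from 6.66 ± 0.432 to 1.87 ± 0.352 FPKM while TSS9889 had 9.61 ± 1.36 and 10.9 ± 1.04 FPKM with overlapping libraries. With each library rescaled to the same total, TSS9889 was also lower at 24 h, by -0.60 in log2 against -1.97 for TSS9887.

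At the level of transcripts, the loss in LRIF1 lay in the class = transcript of ENST00000369763, with 3.78, 4.52 and 4.52 FPKM at 0 h and 0, 0.00024 and 0.239 FPKM at 24 h. A class j variant of the same start group, 3472 bases long, had 1.80 ± 0.718 FPKM at 0 h and 1.35 ± 0.710 FPKM at 24 h, which overlap. The annotated starts of TSS9887 and TSS9889 are 43 bases apart, 111506544 and 111506587 on the minus strand, and their transcripts also differ in exons (4 and 3), so the data do not separate a change of start from a change of splicing here.

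The 120 bases before the upstream start of LRIF1 are printed because both groups sit behind them. The capitals mark the only HIF core in this stretch, on the opposite strand.
LRIF1 TSS9889, GRCh37 chr1:111506588-111506707, minus strand: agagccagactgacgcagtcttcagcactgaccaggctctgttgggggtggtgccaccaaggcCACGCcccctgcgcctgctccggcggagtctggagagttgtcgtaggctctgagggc
The core begins 57 bases before the start of TSS9889 and 100 before that of TSS9887. Another, past the printed stretch, begins 36 bases before the start of TSS9887.

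PBXIP1 binds PBX homeodomain proteins and is known to hinder their binding to DNA. The whole gene went from 2.43, 2.90 and 3.54 FPKM at 0 h to 12.4, 12.03 and 11.5 FPKM at 24 h. Nearly all of it came from TSS10872, led by ENST00000368463 (731 codons), with 100, 97.9 and 94.2% at 0 h and 87.7, 93.5 and 84.2% at 24 h. Most of the rest at 24 h was TSS10873, a single class j transcript near ENST00000368463 without an annotated start, at 0, 2.096 and 0% at 0 h and 11.2, 6.47 and 11.4% at 24 h. In FPKM this group went from 0.0203 ± 0.0351 to 1.16 ± 0.334, and TSS10874 held 1.14, 0 and 4.33% at 24 h. Like RAB13, PBXIP1 was highest in the library numbered 3 at 0 h, 1 h and 2 h, with 5.93 and 6.07 FPKM at 1 h and 2 h.

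SSU72 is a phosphatase of the tail of RNA polymerase II and works in 3′ end formation. The summed levels overlapped, at 88.8, 86.9 and 81.4 FPKM at 0 h and 85.8, 78.3 and 72.6 FPKM at 24 h. Its minor group TSS6800, led by ENST00000359060, which has 2 exons and encodes 153 codons, held 6.65, 5.28 and 5.49% at 0 h and 0.717, 1.34 and 0.965% at 24 h. This group had 4.99 ± 0.796 FPKM at 0 h and 0.788 ± 0.230 FPKM at 24 h, without overlap. The main group TSS6798, led by ENST00000291386 (194 codons), held 94.1 ± 0.819% and 98.9 ± 0.324% and had overlapping FPKM. Both transcripts share the start codon at 1509937, and their annotated starts are 279 bases apart. They also differ in exons (5 for ENST00000291386) and in where they end, at 1477053 for ENST00000291386 and 1496228 for ENST00000359060. The data therefore do not separate a change of start from a change of splicing or of the 3′ end here.

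The stretch before the main start of SSU72 is shown because this group held over 90% of the gene in every library. The capitals mark its only HIF core, which begins 66 bases before the start.
SSU72 TSS6798, GRCh37 chr1:1510244-1510363, minus strand: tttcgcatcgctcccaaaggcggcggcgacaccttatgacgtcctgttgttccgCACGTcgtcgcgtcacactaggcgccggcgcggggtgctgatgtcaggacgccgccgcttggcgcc
The summed level of the gene overlapped between 0 h and 24 h as deposited and was lower at 24 h by -0.98 in log2 after rescaling to the same total.

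SLC35G1 belongs to a family of membrane transporters and has been described as a partner of STIM1, the calcium sensor of the endoplasmic reticulum. It had the largest gain in share of the 8 genes while the level of its main start group was lower. TSS14860, whose annotated starts span 95653730 to 95653779 on chromosome 10, had 5.12, 4.69 and 6.30 FPKM at 0 h and 0.862, 0.970 and 1.75 FPKM at 24 h. TSS14861 is a single class j transcript nearest to ENST00000483386, a transcript annotated for nonsense-mediated decay, and had 0.565, 0.450 and 0.0582 FPKM at 0 h and 0.744, 0.455 and 0.607 FPKM at 24 h. Its level overlapped between the times while its share went from 9.95, 8.75 and 0.916% to 46.3, 31.9 and 25.8%. In TSS14860 the loss included the coding ENST00000427197 of 2402 bases, with 1.93 ± 0.310 FPKM at 0 h and 0.172 ± 0.242 FPKM at 24 h. It also included transcripts annotated for decay: the class = ENST00000483386 went from 0.607 ± 0.417 to 1.27e-05 FPKM and ENST00000605679 from 0.423 ± 0.298 to 0.0460 ± 0.0272 FPKM. Others annotated for decay were not lower, such as the class = ENST00000494992, at 0 and 0.0460 ± 0.0272 FPKM.

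WBP1L binds proteins with WW domains, and its rising and falling starts are the most distant pair among the 6 genes in which both have an annotated start. TSS15174 (ENST00000448841, 363 codons) starts at 104503705 and TSS15175 (ENST00000369889, 342 codons) at 104536006, 32301 bases downstream, each with its own start codon. The downstream group held 8.32, 4.27 and 12.3% at 0 h and 20.1, 6.05 and 10.99% at 1 h. After 2 h it held 13.2, 14.5 and 15.6%, and after 24 h 6.90, 13.8 and 13.6%. Only the 2 h libraries lay wholly above those at 0 h. The gene as a whole went from 8.12, 8.31 and 9.63 FPKM at 0 h to 16.7, 15.05 and 15.98 FPKM at 24 h, and both start groups had higher means, 7.95 ± 0.504 and 14.1 ± 1.30 FPKM for the upstream one and 0.738 ± 0.417 and 1.80 ± 0.567 FPKM for the downstream one, where the libraries overlapped. Rescaled to the same total, the change came to 0.01 in log2 for the gene and to -0.03 for the upstream group.

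Both stretches of WBP1L are printed since these starts are far apart and lead to different start codons. Capitals mark the only HIF core, 63 bases before the upstream start.
WBP1L TSS15174, GRCh37 chr10:104503585-104503704, plus strand: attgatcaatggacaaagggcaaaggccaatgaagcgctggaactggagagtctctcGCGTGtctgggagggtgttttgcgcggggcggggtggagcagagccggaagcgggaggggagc
WBP1L TSS15175, GRCh37 chr10:104535886-104536005, plus strand: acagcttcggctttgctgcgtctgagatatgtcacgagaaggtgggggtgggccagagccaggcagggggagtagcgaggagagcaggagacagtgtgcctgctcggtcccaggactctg
The downstream stretch holds no match.

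FUT11, a fucosyltransferase of the endoplasmic reticulum, was the member with the largest change in level as deposited, from 5.11, 5.15 and 4.81 FPKM at 0 h to 26.5, 29.9 and 29.9 FPKM at 24 h. Rescaled to the same total, it changed by 1.48 in log2, less in size than SLC35G1 at -1.81. Each of its start groups had a higher mean at 24 h, but not in proportion. TSS14444, led by the coding ENST00000372841 (492 codons, start at 75532034 on chromosome 10), went from 4.38 ± 0.215 to 19.1 ± 1.31 FPKM and from 90.2, 81.5 and 90.3% of the gene to 67.3, 63.4 and 68.3%. TSS14446 is ENST00000489264, which starts 1329 bases downstream, runs on to 75540009 and has no coding sequence defined.

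This FUT11 group without a defined coding sequence had 0.195, 0.816 and 0.252 FPKM at 0 h, at most 0.796 FPKM at 1 h and 0.204 FPKM at 2 h, and 8.35, 10.2 and 8.75 FPKM at 24 h. Its share was 3.81, 15.8 and 5.23% at 0 h and 31.5, 34.2 and 29.3% at 24 h. No library at an earlier time reached its lowest share or level at 24 h. The minor TSS14445 (ENST00000465695) held 4.39 ± 1.62% at 0 h, 8.11 ± 1.35% and 8.81 ± 1.13% after 1 and 2 h and 2.03 ± 0.714% at 24 h, so its early and late differences were in opposite directions.

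The stretch before the main FUT11 start is shown because FUT11 had the largest change in summed level as deposited. The capitals mark CACGTG, which reads as a HIF core on both strands and so counts as 2 overlapping matches, at 36 and 35 bases before the start.
FUT11 TSS14444, GRCh37 chr10:75531914-75532033, plus strand: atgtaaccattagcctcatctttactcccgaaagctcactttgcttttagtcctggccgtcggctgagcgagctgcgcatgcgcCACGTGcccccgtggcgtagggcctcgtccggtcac
The window around the start of TSS14446 held no match.

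Over the 8 genes, 12 of the 21 start groups with an annotated start held at least 1 match to ACGTG or GCGTG, on either strand, in the 300 bases from 250 before the start to 50 from it, overlapping matches included. Of 78582 protein-coding start sites in the annotation, 52.9% held one, so the share among the 8 genes was near that of all. Neighbouring start groups can share a match, as TSS5798 and TSS5799 of TRAF5 and TSS9887 and TSS9889 of LRIF1 do. A match in these letters says nothing about binding.

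**Figure D2:**
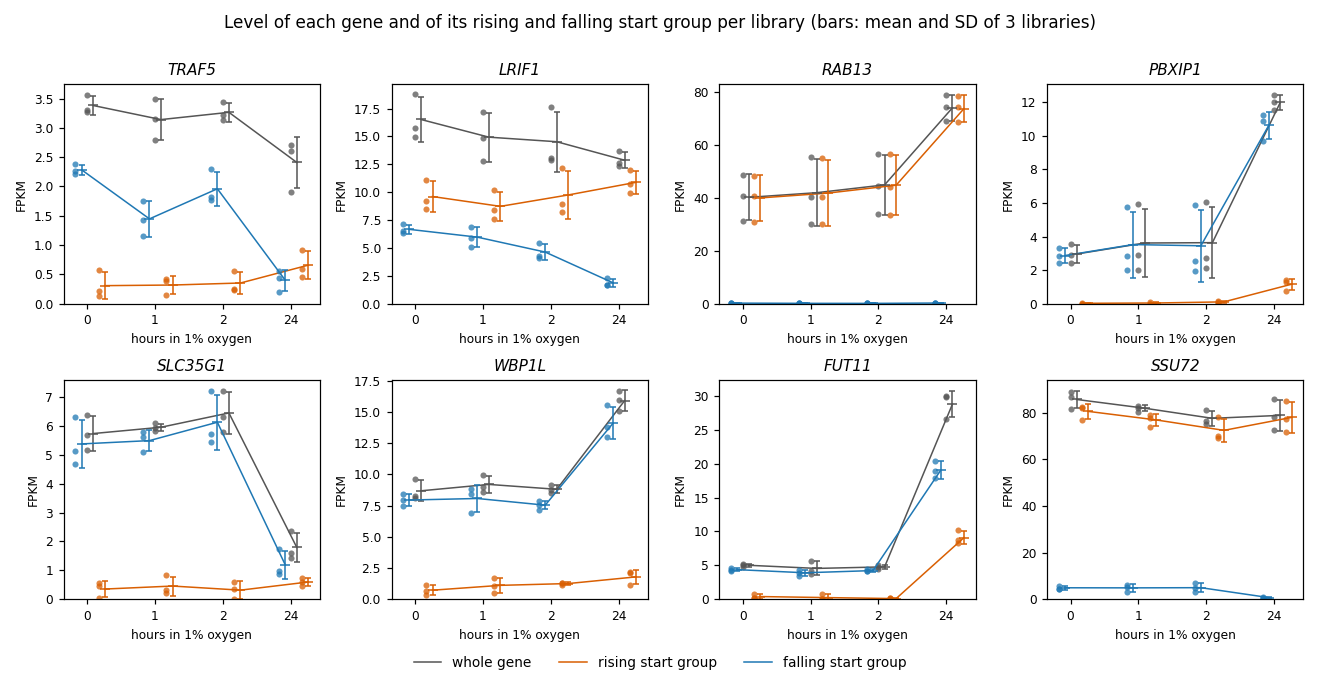
FPKM (vertical axis, from 0) of each whole gene (grey) and of its rising (orange) and falling (blue) start group against hours in 1% oxygen, with a point for each library and bars for the mean and SD of 3. FUT11 reaches a mean of 28.8 FPKM at 24 h, and in LRIF1, SLC35G1, SSU72 and TRAF5 the blue group loses while the orange group overlaps its 0 h level.

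Set by how the share moved, the genes fall into kinds by level. In TRAF5, LRIF1, SLC35G1 and SSU72 the falling group had lower FPKM at 24 h than in any 0 h library and the FPKM of the rising group overlapped. In FUT11 and PBXIP1 both groups had higher FPKM in every 24 h library than in any at 0 h. The summed FPKM of the genes at 24 h against 0 h differed by 2.40 ± 0.14 (SE) in FUT11, 1.87 ± 0.35 in PBXIP1, 0.89 ± 0.23 in RAB13, 0.84 ± 0.11 in WBP1L, -0.12 ± 0.08 in SSU72, -0.34 ± 0.15 in LRIF1, -0.43 ± 0.14 in TRAF5 and -1.46 ± 0.16 in SLC35G1, on the log2(FPKM + 0.5) scale, which understates the change of low genes. Of the 8, 3 (FUT11, PBXIP1 and SLC35G1) met the call rule used for all genes (limma adjusted p under 0.01 and an absolute log2 fold change above 1), which 18.3% of 16680 genes met, a count from which nothing is read because this contrast chose the genes. When each library was rescaled to the same total, the median of all genes moved to -0.68, RAB13 and WBP1L came to 0.03 and 0.01, and FUT11, PBXIP1 and SLC35G1 kept their directions at 1.48, 0.97 and -1.81, with PBXIP1 no longer past a doubling. The others came to -0.98 in SSU72, -1.12 in LRIF1 and -0.92 in TRAF5, so that statements on levels at 24 h are relative to the scaling. Over all genes, 1462 were called higher and 1586 lower as deposited, against 215 and 3893 after that rescaling. Shares inside a gene are not touched by it.

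**Figure D3:**
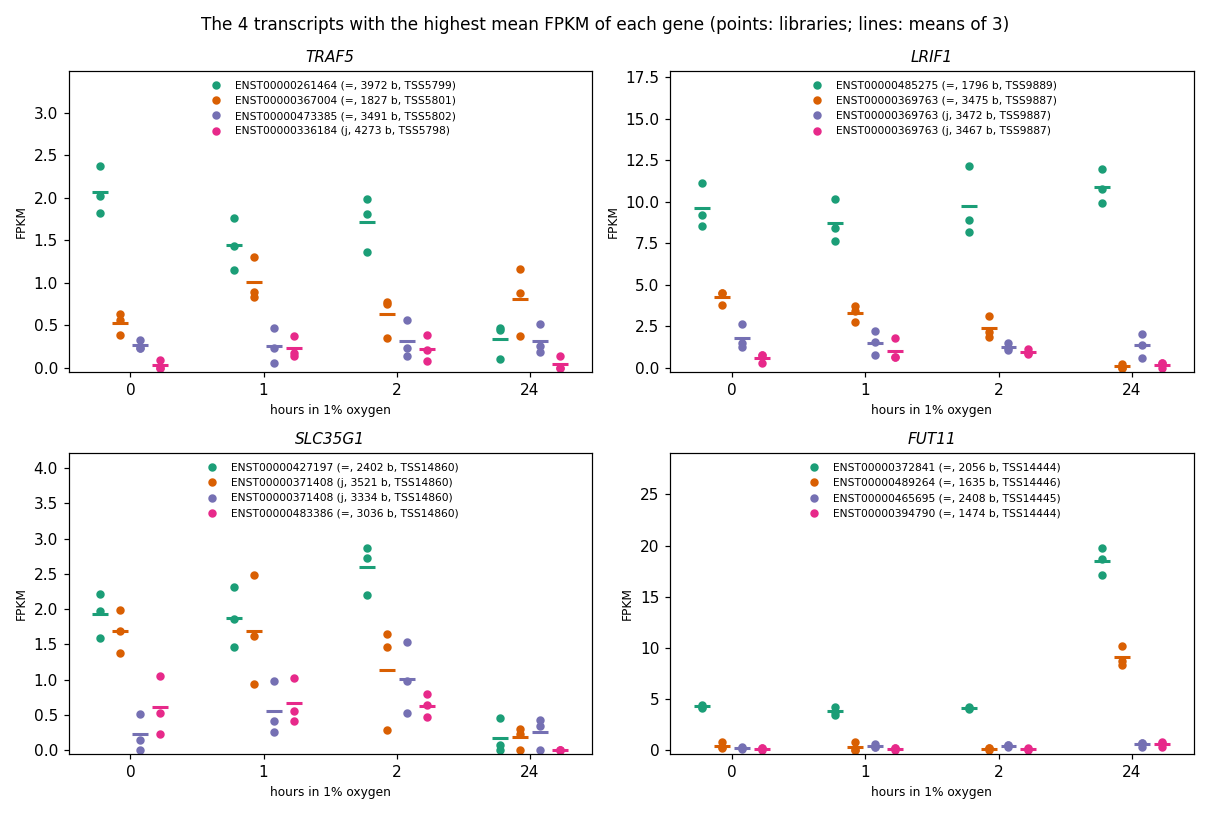
FPKM (vertical axis) of the 4 transcripts with the highest mean in TRAF5, LRIF1, SLC35G1 and FUT11 against hours in 1% oxygen, with a point for each library, a line for the mean of 3, and class code, length in bases and start group in the key. ENST00000261464 of TRAF5 and the class = ENST00000369763 of LRIF1 (4.27 to 0.0796 FPKM) drop at 24 h, and ENST00000489264 of FUT11 comes up to 9.10 FPKM.

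Whether these genes moved early was tested at 1 h and 2 h. These contrasts did not choose the genes, but they use the same 0 h libraries as the comparison that did. They are therefore not independent of the choice, which can push early differences in the direction of those at 24 h. Usage was taken as the log2 ratio of a start group to the other start groups of its gene, (FPKM + 0.5) over (FPKM + 0.5), and fitted with limma over all 31006 start groups of genes with at least 2 past the filter. None of the 16 start groups passed an adjusted p of 0.05 at 1 h, with 2 below an unadjusted p of 0.05, and none did by diffSplice, limma's test of a feature against its gene. The background at 1 h was 0.00323% (1 start group, of the lipid synthesis gene FASN), with 1605 below an unadjusted p of 0.05 and 39 called by diffSplice.

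The largest early changes were those of TRAF5 at 1 h. TSS5799 changed by -0.99 ± 0.26 (SE) and TSS5801 by 0.90 ± 0.30 in log2 usage, both without overlap of the shares, with limma p of 0.0028 and 0.011 and adjusted p of 0.91 and 0.92. Shares of 3 of the 16 groups did not overlap at 1 h, against a background of 11.2%, and the remaining one was TSS14445 of FUT11 (0.47 ± 0.22, limma adjusted p 0.96). At 2 h the usage changes of the TRAF5 groups were -0.33 ± 0.26 and 0.21 ± 0.30.

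At 2 h, again none of the 16 groups passed by limma or by diffSplice, with 2 below an unadjusted p of 0.05, and the background was 0% (0 of 31006, with 2284 below an unadjusted p of 0.05 and 82 called by diffSplice). Those with the lowest p were the LRIF1 pair, TSS9889 at 0.50 ± 0.21 and TSS9887 at -0.49 ± 0.21, each with a limma adjusted p of 0.65. Their shares at 2 h were 69.0, 63.6 and 68.0% for TSS9889 and 31.0, 33.5 and 31.4% for TSS9887, all outside the 0 h libraries, which also serve the comparison at 24 h. Shares of 6 of the 16 groups did not overlap with 0 h at 2 h, against a background of 14.2%: both groups of LRIF1, both of WBP1L, TSS10873 of PBXIP1 and TSS14445 of FUT11. The groups of a gene with 2 groups mirror each other, so these 6 lie in 4 genes. Of the 16 groups, 4 (TSS10873 of PBXIP1, TSS14445 and TSS14446 of FUT11 and TSS5798 of TRAF5) passed the filter only with the help of the 24 h libraries that chose the genes. With the filter on the 9 earlier libraries, an alternative added after seeing the data, 2 of 12 groups did not overlap at 1 h (both of TRAF5), against 11.4% of all, and 4 of 12 at 2 h (those of LRIF1 and WBP1L), against 14.6%.

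**Figure D4:**
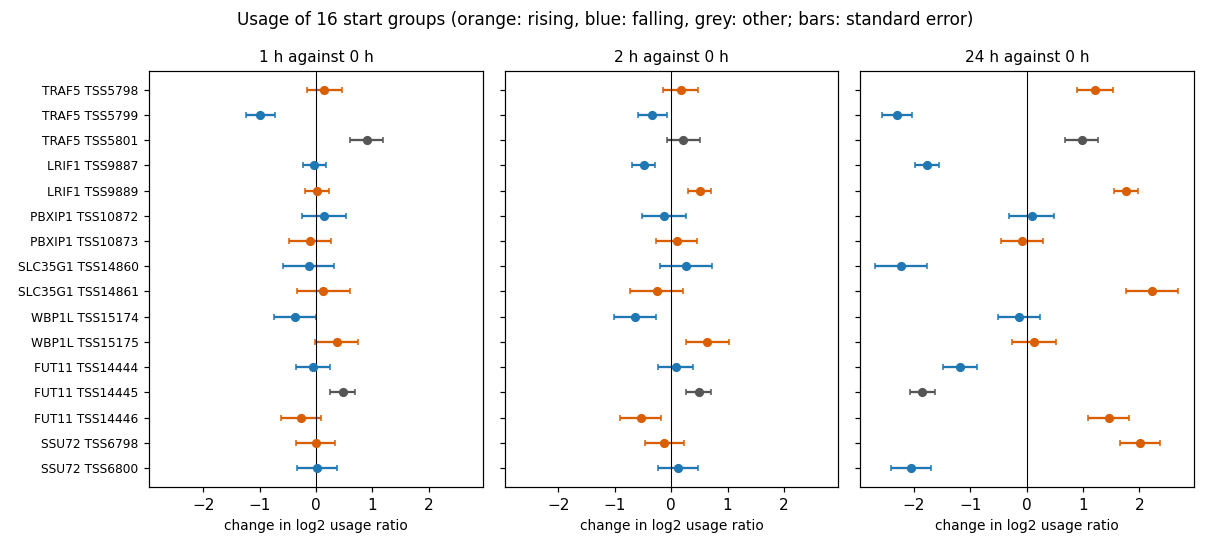
Change in the log2 usage ratio (horizontal axis) of the 16 tested start groups at 1 h, 2 h and 24 h against 0 h, with bars for the standard error, in orange for rising, blue for falling and grey for other groups. At 1 h the TRAF5 pair lies farthest from 0 (-0.99 and 0.90), at 2 h no group is beyond 0.64 in size, and at 24 h changes reach -2.30 and 2.23.

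The usage ratio at 24 h is given for scale. It was -2.30 ± 0.26 for TSS5799 and 0.98 ± 0.30 for TSS5801 of TRAF5, 1.76 ± 0.21 for TSS9889 of LRIF1, 2.23 ± 0.46 for TSS14861 of SLC35G1, 1.46 ± 0.36 for TSS14446 of FUT11, -2.05 ± 0.36 for TSS6800 of SSU72 and 0.13 ± 0.38 for TSS15175 of WBP1L. The last turned to -0.11 without replicate 2 of 0 h and to -0.06 with a pseudocount of 1. The FUT11 value was 2.26 and 0.97 with pseudocounts of 0.1 and 1. Gathered by Cufflinks locus, which joins SEC24C to FUT11 and SFXN2 to WBP1L, TSS14446 came to 2.67, TSS15175 to 1.18, TSS15174 from -0.13 to 2.50 and TSS14444 from -1.18 to 1.33, since the rest of the locus then enters the ratio. By diffSplice TSS14444 came to -0.01. With class = transcripts alone TSS9889 came to 3.07. For TSS10873 of PBXIP1 it was -0.08 ± 0.37, against the direction of the share, because 0.5 FPKM outweighs a group with 0.0203 FPKM at 0 h, and with a pseudocount of 0.1 it was 1.53. At 24 h 11 of the 16 groups met the call rule, as did 9.39% of all start groups, and again the choice of the genes used this contrast, so nothing is read from it.

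Summed over the gene, none of the 8 changed at 1 h or 2 h by limma. The differences ran from -0.14 to 0.15 at 1 h, all with an adjusted p of 1 by limma and none below an unadjusted 0.05, and from -0.19 to 0.16 at 2 h, with limma adjusted p from 0.44 (SSU72) to 0.94 and again none below an unadjusted 0.05. Rescaled to the same total, all 8 were lower at 2 h, from -0.62 in PBXIP1 to -1.22 in SSU72, where the median of all genes was -0.88, and none met the call rule. The background was 0.006% at 1 h (1 of 16680 genes, the small nuclear RNA gene RNVU1-16) and 0.018% at 2 h (3 genes: ERRFI1, MAFF and PIM1, which are quickly induced by signals and stress). In simulated data the usage test found 57.5% of 200 start groups with a log2 change of 2 at 2 h, so changes of this size and smaller ones may have been missed.

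Over the 8 lists of families and partners of these genes, 9 of 67 tested genes (13.4%) met the call rule for summed FPKM at 24 h, against 18.3% of all genes, and 9 of 52 with at least 2 tested start groups (17.3%) had a changed one, against 21.4% of all such genes. Both shares are near those of all genes, and the genes are named as a description. Of 8 tested TRAF adaptors and partners 1 was higher, BIRC3, an inhibitor of cell death that TRAFs recruit (0.577 ± 0.212 to 3.02 ± 0.684 FPKM). None was lower, and the median of the list was -0.01. In usage, 1 of 4 passed, TRAF6 in TSS23829, whose share went from 21.3 ± 4.23 to 48.2 ± 3.78% (limma adjusted p 0.020). Of 7 tested RAB8-subfamily genes and regulators 1 was higher, RAB8B (7.92 ± 3.14 to 16.2 ± 0.980 FPKM), and MICALL1 and MICALL2, effectors of RAB13, passed in usage, with TSS89187 of MICALL1 going from 3.35 ± 1.39 to 20.4 ± 7.36% and TSS122204 of MICALL2 from 11.4 ± 5.23 to 3.59 ± 1.71% of the gene.

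Among 13 tested fucosyltransferases and genes of the GDP-fucose route, 2 were lower and none higher. These were TSTA3, which makes GDP-fucose (73.9 ± 9.74 to 28.2 ± 7.02 FPKM), and SLC35C1, which carries it into the Golgi (7.81 ± 0.0623 to 3.54 ± 0.999 FPKM), and FUT10 passed in usage (TSS129165, 19.4 ± 0.466 to 30.5 ± 4.62%). FUT11 is not counted among these 13. Of 12 tested phosphatases of the polymerase tail and 3′ end factors beside SSU72, CTDSP2 was higher (16.8 ± 2.33 to 45.6 ± 3.21 FPKM) and UBLCP1 (30.6 ± 3.10 to 8.70 ± 1.445 FPKM) and CSTF2 (32.0 ± 2.84 to 9.92 ± 0.815 FPKM) were lower. In usage 3 of 11 passed, the phosphatases CTDSP1, CTDSP2 and CTDSPL, and TSS77669 of CTDSP1 went from 5.55 ± 4.02 to 36.6 ± 9.08% of the gene.

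Of the lists for the other members, PBX proteins and partners held 1 higher gene of 7, MEIS3 (3.88 ± 1.09 to 10.6 ± 0.329 FPKM), and PBX2 passed in usage (TSS116172, 5.35 ± 3.13 to 0.685 ± 0.919%). Store-operated calcium entry held 1 higher gene of 6, the channel subunit ORAI3 (0.0819 ± 0.142 to 2.93 ± 1.67 FPKM). None of 5 HP1 and X-inactivation partners of LRIF1 and none of 9 proteins that bind or hold WW domains passed, although NEDD4L passed in usage (TSS63507, 7.32 ± 0.272 to 3.06 ± 0.212%). Of the HIF targets, 7 of 11 with at least 2 tested start groups had a changed one, against 21.4% of all 8981 such genes. The largest of these changes were in minor groups that lost share as the gene went up: TSS130868 of NDRG1 from 1.48 ± 0.985 to 0.122 ± 0.0407%, TSS102382 of ANKRD37 from 21.1 ± 2.40 to 2.12 ± 0.520% and TSS75044 of KDM3A from 10.4 ± 10.3 to 0.461 ± 0.798%. The genes with the largest change in level were ANGPTL4 (1.66 ± 0.143 to 161 ± 27.9 FPKM), ANKRD37 (2.01 ± 0.170 to 111 ± 24.6 FPKM) and NDRG1 (24.1 ± 6.18 to 984 ± 153 FPKM).

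Start groups of other genes with the most similar course were found by the root mean square difference of log2(FPKM + 0.5), centred on the mean of the 12 libraries, over 19874 start groups with a mean of at least 1 FPKM. For TSS14446 of FUT11 they were ENO2 and PFKFB4, both of glycolysis, at distances of 0.46 and 0.47, the largest of the set. For RAB13 they were CD99 and GALK1 (0.11 each), for PBXIP1 PALM and CHD3 (0.11 and 0.12), and for LRIF1 RBBP6 and C1GALT1 (0.10 and 0.11). For SSU72 they were USF2 and PPME1 (0.06 each), for TRAF5 TBC1D22A and C17orf80 (0.16 and 0.17), for SLC35G1 QKI and CIZ1 (0.21 and 0.22) and for WBP1L ANAPC16 and RTN4 (both 0.23). These distances are a description over 12 libraries, and the added 0.5 FPKM flattens the course of low groups such as TSS10873 of PBXIP1, so its likeness rests on that choice.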

How the data were processed

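Poly(A) libraries of HCT116 cells were sequenced in pairs, per the labels with base calling by CASAVA 1.8.2. The authors aligned reads to hg19, assembled and merged transcripts with Cufflinks and deposited FPKM values per transcript and library. No counts were used here. FPKM was summed by gene name and start group, without rescaling.

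Start groups and genes with an FPKM above 0.5 in at least 3 libraries were tested over all 12 libraries with limma 3.58.1 (R 4.3.3, lmFit, eBayes with trend, two-sided, Benjamini-Hochberg over all features). Usage was called at an adjusted p under 0.05, and gene totals at an adjusted p under 0.01 and an absolute log2 fold change above 1, the thresholds of the study with limma in place of a count test. Steps were tested on simulated data: 3 unchanged start groups and 1 unchanged gene were called. Tables were made with pandas 2.3.3 and numpy 2.4.6 under Python 3.11.15, and figures with matplotlib 3.10.9.

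The members and gene lists were chosen with earlier results of these data known. Named were all members, their rising, falling and over-5% start groups, up to 3 genes of each list called in level and 3 in usage by size of change, and the 2 nearest start groups of each member. The early calls (FASN, RNVU1-16, ERRFI1, MAFF, PIM1), the transcripts inside start groups and the cell line markers were named after their values were seen. Starts, codons and types came from GENCODE 44 lifted to GRCh37, with 36 of 39 reference transcripts matched, and sequences from the GRCh37 genome.

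Replicate numbers come from the labels. Deviations of same-numbered gene totals correlated at 0.0954 to 0.34 between 0 h and 1 h, 0.129 to 0.362 between 0 h and 2 h and -0.000785 to 0.242 between 0 h and 24 h. Those of start group usage correlated at 0.0508 to 0.0835, 0.0339 to 0.109 and -0.0263 to 0.106. Any pairing by number is thus weak, and it is most visible in gene totals at 1 h and 2 h.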

Additional observations from a re-analysis of the deposited data

How the results depend on the processing

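No start group or summed level of the 8 genes passed its threshold at 1 h or 2 h in any alternative; the lowest adjusted p for usage at 1 h was 0.75 by limma's usage fit and 0.55 by diffSplice, at 2 h 0.53, and for levels 0.34 and 0.025. Shares of start groups do not depend on scaling between libraries, but levels do. With each library rescaled to the same total (TPM), the changes in level at 24 h turned to -0.60 for the rising group of LRIF1, -0.0094 for that of SLC35G1 and -0.034 for the falling group of WBP1L. The median share gain was 8.76 points with class = transcripts alone, where PBXIP1 and SLC35G1 lose their rising group by construction, and 9.61 with transcripts above 0.5 FPKM in at least 3 libraries, against 11.1 to 15.7 when single libraries were left out.

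Counts over all features moved more, and the cause was not tested. Start groups with changed usage at 1 h numbered 1 as reported, 0 with a pseudocount of 1, 2 without a filter, 39 by diffSplice and 0 with the 6 libraries of the contrast alone. At 2 h they numbered 1 without a filter, 82 by diffSplice and 2 with the 6 libraries alone. At 24 h there were 2913, against 1784 with a pseudocount of 0.1, 4519 with 1, 14396 without a filter and 960 with the 6 libraries alone. Genes with a changed total numbered 31 by TPM and 0 without a filter at 1 h, and 6 with a pseudocount of 0.1, 390 by TPM and 0 without a filter at 2 h. Leaving out single libraries gave 0, 0 to 1 and 1490 to 2588 start groups at 1, 2 and 24 h, the lowest without replicate 1 of 0 h, and 0 to 1, 0 to 6 and 2686 to 3236 genes. With the replicate number as a block there were 0, 0 and 2815 start groups and 0, 4 and 3106 genes, and the block changed no call of the 8 genes at 1 h or 2 h. Of 646 refitted changes of the 8 genes at 1 h and 2 h, 62 took the other sign, none of them past the threshold. Of their shares and levels at 24 h, 31 values moved beyond the replicate spread and 3 reversed, those given above. With 3 libraries a time point and FPKM alone, changes in groups near 0.5 FPKM, as in TRAF5, PBXIP1 and SLC35G1, are the least certain.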
